A study of Rattus norvegicus with 16 samples.

Results

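The nuclear genes for the subunits of the mitochondrial respiratory chain and the ATP synthase were examined in rat hepatoma H35 cells after silencing of Pdrg1, by complex and with the muscle isoform Cox6a2 set beside its ubiquitous counterpart Cox6a1. Members were the array genes whose names start with Nduf (a, b, c, s or v), Uqcr, Cox4 to Cox8 or Atp5, or are Sdha to Sdhd, with Cox4i2 left out. The name rule took 88 of the 26269 gene names on the array, measured by 111 of 30367 probes. Of these 88, 76 were subunits, with 36 in complex I, 4 in complex II, 7 in complex III, 14 in complex IV (Ndufa4, a complex I gene by name, was counted there) and 15 in the ATP synthase (complex V). The other 12 were 4 assembly factors by name (Ndufaf1 to Ndufaf4) and 8 further names not taken as subunits, copy-like genes among them. They were counted apart.

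RNA of H35 cells, an established rat hepatoma line, was hybridized to 16 one-color arrays, 4 biological replicates for each of 4 groups. CN-10 was a stable clone that carried a plasmid with a negative control sequence, 4-18 a stable clone with the shRNA4 plasmid against Pdrg1, and 3-44 a stable clone with the shRNA3 plasmid. shRNA3T was an enriched pool of cells transfected with that same shRNA3 plasmid and not cloned. All 4 groups had been through transfection and selection with the antibiotic G418, stable clones for longer and at a higher dose, each stable group was 1 clone, and no pool with the control plasmid was among the samples, so silencing cannot be told apart from what sets 1 clone off from another, or a pool from a clone.

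Electrons from NADH enter the chain at complex I and electrons from succinate at complex II, pass through complex III and cytochrome c, and reach oxygen at complex IV, cytochrome c oxidase, while the ATP synthase uses the proton gradient that complexes I, III and IV build up. Most subunits are encoded in the nucleus, and several subunits of complex IV come in tissue isoforms. For subunit 6a, Cox6a1 is the form of liver and most tissues, and Cox6a2 is the form of heart and skeletal muscle, where transcription factors of the MEF2 and MyoD families act on muscle genes.

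Promoter sequences are given for muscle and ubiquitous isoforms of complex IV because the results turn on a muscle isoform among ubiquitous ones. That of Cox6a1 is not given here. Of the 76 subunit genes, 66 could be matched to a RefSeq promoter (build GRCr8). The sequences below are the 250 bases before the start site of 2 striated muscle isoforms, Cox6a2 (chr1:192219717-192219966, minus strand) and Cox8b (chr1:205408274-205408523, minus strand), and of 2 ubiquitous isoforms, Cox7a2 (chr8:89601150-89601399, minus strand) and Cox8a (chr1:213833624-213833873, minus strand). Capitals mark matches on either strand to the E-box CAGCTG, to CTAAAAATA (MEF2), to CGCANGCG (NRF1) and to CCGGAAG (ETS factors), and no match overlapped another.
Cox6a2: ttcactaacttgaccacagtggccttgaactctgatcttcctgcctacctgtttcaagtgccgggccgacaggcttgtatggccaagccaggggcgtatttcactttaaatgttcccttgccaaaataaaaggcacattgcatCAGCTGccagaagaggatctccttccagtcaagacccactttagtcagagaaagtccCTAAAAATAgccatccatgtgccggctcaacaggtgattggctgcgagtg
Cox8b: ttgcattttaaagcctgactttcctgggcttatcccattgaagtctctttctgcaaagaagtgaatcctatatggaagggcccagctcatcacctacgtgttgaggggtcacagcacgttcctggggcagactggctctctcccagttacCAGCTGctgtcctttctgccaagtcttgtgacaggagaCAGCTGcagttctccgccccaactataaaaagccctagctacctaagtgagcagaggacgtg
Cox7a2: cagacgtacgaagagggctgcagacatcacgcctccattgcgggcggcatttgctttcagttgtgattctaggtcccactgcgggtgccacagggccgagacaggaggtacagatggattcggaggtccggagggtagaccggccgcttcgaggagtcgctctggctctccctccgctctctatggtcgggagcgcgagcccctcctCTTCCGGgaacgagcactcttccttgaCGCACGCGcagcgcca
Cox8a: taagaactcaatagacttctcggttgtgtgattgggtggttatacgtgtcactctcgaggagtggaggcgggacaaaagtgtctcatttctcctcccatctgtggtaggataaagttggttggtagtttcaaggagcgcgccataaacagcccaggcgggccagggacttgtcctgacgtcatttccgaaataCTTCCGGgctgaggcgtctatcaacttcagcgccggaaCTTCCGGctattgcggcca

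The MEF2 letters stood 50 to 42 bases before the start of Cox6a2 and were found in no other of the 66 subunit promoters, against 0.463% of 27457 promoters of the same length. The E-box was found in 9 of 66 subunit promoters (13.6%) and in 11.9% of all promoters, Cox6a2 and Cox8b among them. The NRF1 letters were found in 20 of 66 (30.3%, against 7.21% of all), the ETS letters in 19 (28.8%, against 7.74%) and AAGATGGCG (YY1) in 1 (1.52%, against 0.736%). The GC content of the Cox6a2 stretch was 49.6%, below the median of the subunit promoters (56.4%) and lower than all but 8 of them. These matches describe the sequence, and factor binding was not measured.

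The level of Pdrg1 in the arrays was 13.41 to 13.88 (log2 normalized intensity) in CN-10, 11.57 to 13.34 in 4-18, 11.89 to 12.95 in 3-44 and 12.39 to 12.97 in shRNA3T. Every silenced array lay below every CN-10 array. The log2 fold changes of -0.77, -0.99 and -0.85 did not pass the test (limma adjusted p = 0.129, 0.105 and 0.143). Replicate 1 was the lowest array in each silenced group. Without it the arrays read 13.25 to 13.34 in 4-18, 12.86 to 12.95 in 3-44 and 12.90 to 12.97 in shRNA3T. By RTqPCR the paper reported lower Pdrg1 in both silenced clones than in CN-10. All 12 hepatocyte markers were well above background on every array of CN-10, 3-44 and shRNA3T, and 10 of 12 on every array of 4-18. The 4 arrays of a group shared 1 slide, and that of 4-18 was scanned in another session (the slide and the group are confounded). Between 53.1% and 74.3% of spots were well above background per array, and the 4-18 arrays were the dimmest. The spread between replicates was also widest in 4-18, with a median SD (log2) of 0.350 for the 76 subunits against 0.175 in CN-10, 0.181 in 3-44 and 0.142 in shRNA3T. The replicates are biological by the methods of the paper. Neither the methods nor the labels say that they came from separate cultures started apart, so p-values measure the spread between these samples.

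The comparison of the isoforms gave the most pronounced difference. Cox6a2 was lower in all 3 silenced groups than in CN-10, and Cox6a1 did not pass the test in any of them. The Cox6a2 probe lies at chr1:187464580-187464639 (rn4, minus strand) and the Cox6a1 probe at chr12:42533025-42533084 (rn4, plus strand), in the coordinates of the array files. In CN-10 the 4 arrays read 10.13, 10.19, 9.96 and 10.39 for Cox6a2 (log2 normalized intensity). In 4-18 they read 6.84, 7.56, 6.79 and 6.65, where only 2 of the 4 arrays were well above background. In 3-44 they read 8.90, 8.27, 8.69 and 8.26. In shRNA3T they read 7.24, 7.66, 7.44 and 7.20. No silenced array reached the lowest CN-10 array, and the 3-44 arrays stood between CN-10 and both other silenced groups without overlap with either.

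For Cox6a2 the size of the fall in 4-18 is uncertain, since only 2 of the 4 arrays there were well above background. Cox6a2 fell by 3.20 on the log2 scale in 4-18 (SE 0.19, 9.22-fold, limma adjusted p = 1.87e-08). In 3-44 it fell by 1.64 (3.11-fold, adjusted p = 8.45e-05), and in shRNA3T it fell by 2.78 (6.86-fold, adjusted p = 2.97e-07), with the same SE. The exact two-sided permutation test gave p = 0.0286 in each comparison, the smallest value that 4 arrays against 4 allow. All 26 alternatives of processing or sample choice kept the call in each comparison, and the log2 fold change ranged from -4.86 to -2.79 in the clone 4-18. The range was -1.82 to -1.55 in the clone 3-44 and -3.46 to -2.70 in the shRNA3T pool. Cox6a2 belongs to the genes that the study itself listed from these same arrays, so its direction here is no independent evidence. In H35 cells, fewer cells with a transcript and less of it per cell cannot be told apart in bulk RNA.

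Cox6a2 also separated silenced groups from one another. The level was 1.57 lower in 4-18 than in 3-44 on the log2 scale (limma adjusted p = 3.23e-05). This size is uncertain, since only 2 of the 4 arrays of 4-18 were well above background. The level was 1.14 higher in 3-44 than in shRNA3T (adjusted p = 0.00132), although both carried shRNA3. The difference of -0.43 between 4-18 and shRNA3T did not pass the test (SE 0.19, adjusted p = 0.151).

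Cox6a1, the partner isoform, read 17.87, 17.49, 17.67 and 18.05 in CN-10, 17.41, 18.49, 18.33 and 18.15 in 4-18, 18.33, 18.23, 17.89 and 18.06 in 3-44, and 18.08, 17.94, 17.92 and 17.87 in shRNA3T. The groups overlapped. Against CN-10 it changed by 0.32 in the clone 4-18, 0.36 in the clone 3-44 and 0.18 in the pool (log2 scale, SE 0.19 each, limma adjusted p = 0.262, 0.339 and 0.681). Taken within each array, Cox6a2 minus Cox6a1 changed by -3.53 in 4-18, by -1.99 in 3-44 and by -2.96 in shRNA3T against CN-10. The exact permutation test gave p = 0.0286 for each, without overlap. In 4-18 only 2 of the 4 arrays had Cox6a2 well above background. The change there was -3.10 in the deposited series values and -5.40 with the 75th percentile of the processed signal. The 2 isoforms thus changed unequally, whichever way the arrays are scaled against each other by a constant.

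**Figure D1:**
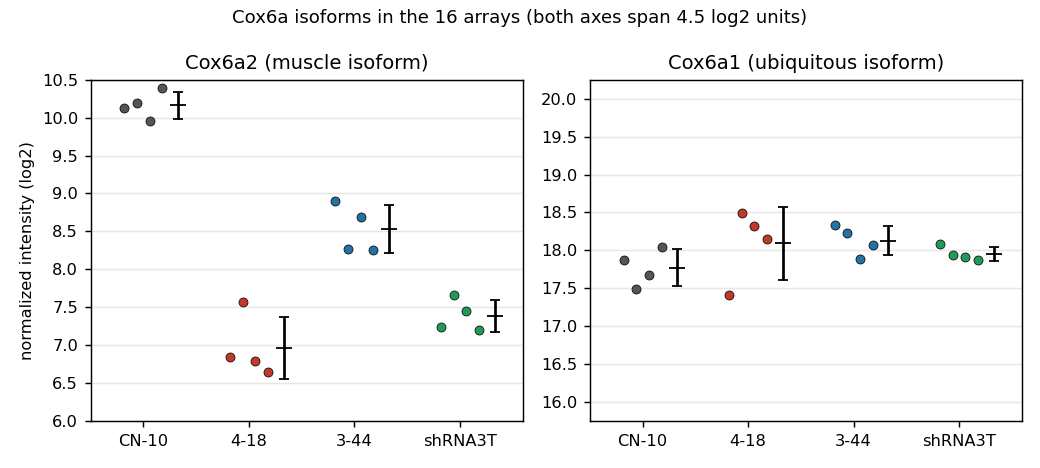
Normalized intensity (log2) of Cox6a2, left, and Cox6a1, right, in the 4 arrays of each group; points are arrays, and the bar beside them is the mean ± SD (n = 4). Both vertical axes span the same range. The Cox6a2 points of the 3 silenced groups lie below the lowest CN-10 array (9.96), while the Cox6a1 groups overlap.

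No other tissue isoform measured passed the test against CN-10, and Cox8b and Cox8c lay so near to background that a fall could hardly have been seen. Cox8b, the heart and skeletal muscle form of subunit 8, stayed close to background, well above it on 3 of 4 arrays in CN-10, 3-44 and shRNA3T and on 2 of 4 in 4-18, with log2 fold changes of 0.02, -0.01 and -0.03 in 4-18, 3-44 and shRNA3T (limma adjusted p = 0.952, 0.983 and 0.964). Cox8c, the testis form, was not well above background on any of the 16 arrays. Its test between 4-18 and 3-44 passed all the same, which concerns signal at background. Cox6b2, the testis form of subunit 6b, was well above background on all arrays and gave values of -0.39, -0.46 and -0.33, all negative, that did not pass the test (adjusted p = 0.094, 0.107 and 0.233). Cox8a, the ubiquitous form of subunit 8, was higher in 4-18 (0.36, adjusted p = 0.00184), did not pass in 3-44 (-0.22) and was lower in shRNA3T (-0.27, adjusted p = 0.0261). In the deposited series values its sign in 4-18 turned (-0.069, adjusted p = 0.828), and its call in shRNA3T was lost without any 1 of 6 arrays and under 5 of 10 other alternatives. Ndufa4 was higher in 4-18 (0.34, adjusted p = 0.0488), a call lost without any 1 of 13 arrays (adjusted p up to 0.131). The ubiquitous Cox7a2 (0.41, -0.12 and -0.01) and Cox7b (0.12, -0.01 and 0.16) did not pass either. The 3 genes for subunit c of the ATP synthase, Atp5g1, Atp5g2 and Atp5g3, encode the same mature protein, and none passed in any comparison with CN-10. Cox7a1, Cox6b1, Cox7b2 and Ndufa4l2 were not analysed here.

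Muscle markers were read beside Cox6a2, since it is a muscle isoform. Of 16 striated muscle markers measured, 3 rose and 4 fell in 4-18 (background over all genes 11.6% higher and 12.4% lower), 2 fell in 3-44 (4.69% lower) and 1 fell in shRNA3T (7.04% lower), and their summed intensity (linear scale) ran from 3640 to 3818 in CN-10, from 2848 to 3510 in 4-18, from 2867 to 3101 in 3-44 and from 2836 to 3350 in shRNA3T. On every CN-10 array 9 of the 16 were well above background, among them Myog, Ckm, Mb and Tnnc1. In 4-18 only 5 of the 16 were so on every array, and 7 were so on none. Myog, a myogenic factor, fell by 0.53 in 4-18 (limma adjusted p = 0.00969). Myod1, Myh1, Myh7 and Tnnt3 were not well above background on any array. Desmin (Des), the intermediate filament protein of muscle, fell in the same 3 comparisons as Cox6a2, by 1.17, 0.81 and 0.98 on the log2 scale (limma adjusted p = 4.54e-05, 0.00358 and 0.000511). Its CN-10 arrays read 8.39, 8.22, 8.33 and 8.13, and no silenced array exceeded 7.69. In 4-18, Ckm (0.41, adjusted p = 0.0037), Tnnc2 (0.52, adjusted p = 0.0157) and Actn3 (0.53, adjusted p = 0.0157) rose instead. Actc1, cardiac actin, was also lower in 4-18 and 3-44 (-0.75 and -0.68) and did not pass in shRNA3T (-0.53, adjusted p = 0.0703). Of 7 fibroblast markers, 2 (Col1a1 and Col1a2) were well above background on every array of CN-10, 3-44 and shRNA3T. Col1a1 was so on all 16 arrays and rose by 0.52 in shRNA3T (limma adjusted p = 0.0338), Pdgfra was called lower in 3-44, where no array had it well above background, and no array had Dcn or Thy1 well above background. Of 5 leukocyte markers, 4 were well above background on every array of CN-10, 3-44 and shRNA3T and 1 on every array of 4-18, and Ptprc passed the background flag on none of the 16 arrays. Cd68 fell by 0.43 in 4-18 (adjusted p = 0.0142), and Cd14 rose in each comparison, by 0.81, 2.04 and 0.98 (adjusted p = 0.00185, 1.73e-06 and 0.000857). Of the 12 hepatocyte markers, 1 rose and 5 fell in 4-18, 4 rose in 3-44 (background 3.45% higher), and 3 rose and 1 fell in shRNA3T (background 5.13% higher). Ttr, transthyretin, rose by 2.93, 2.84 and 2.39 (adjusted p = 2.21e-05, 0.000125 and 0.000319). Apoa1, an apolipoprotein, fell by 2.12 in 4-18 and rose by 2.18 in 3-44 (adjusted p = 1.5e-05 and 5.47e-05). The part of other cell types in the Cox6a2 result was not tested.

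Across the 76 subunits, 11 were higher and 11 lower in 4-18 than in CN-10 (14.5% each), where 11.6% and 12.4% of all genes were called higher and lower. In 3-44, 3 were higher (3.95%, background 3.45%) and 4 lower (5.26%, background 4.69%). These shares lie near those of all genes, but the counts moved with the processing. In 4-18 they were 17 higher and 5 lower with the 75th percentile of the processed signal (13.9% and 13.8% of all genes), and 0 and 22 in the deposited series values (1.15% and 14.7% of all genes). In 3-44 the lower ones were 10 with array weights (10.3% of all genes), 7 with the replicate block (6.12%) and 1 in the deposited series values (0.522%), and the higher ones were 1 and 0 with the 75th percentile and in the deposited series values (2.55% and 0.217%). In shRNA3T, 1 was higher (1.32%, background 5.13%) and 14 were lower (18.4%, background 7.04%). A gene was called with a Benjamini-Hochberg adjusted p under 0.05 over all probes, whatever the size of its change. With a change of at least 2-fold as well, 5 subunits passed in 4-18 (6.58%, background 6.15%), 2 in 3-44 (2.63%, background 1.47%) and 1 in shRNA3T (1.32%, background 2.39%). Cox6a2 was the only subunit past 2-fold in all 3. The count of 14 lower in shRNA3T was 28 with array weights (14.8% of all genes), 9 with cyclic loess (8.77%), 6 with the 75th percentile of the processed signal (7.08%) and 1 in the deposited series values (0.834%).

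The median log2 fold change of the 76 subunits was 0.13 in 4-18, -0.03 in 3-44 and -0.19 in shRNA3T, against medians of 0.00, -0.01 and -0.01 over all genes. In relation to the median of all probes, the subunits' median was 0.12 in 4-18 with the normexp correction and quantile scaling used throughout, 0.09 with cyclic loess in place of quantile scaling, 0.01 with the processed signal scaled on its 75th percentile and -0.68 in the unscaled deposited series values. In shRNA3T it was -0.18, -0.13, 0.11 and -0.07 in the same order. The sign thus turned with the processing in both groups, and no common direction of the chain is given for either. Cyclic loess changes the scaling alone, while the processed signal differs in the background correction as well. The deposited series values have the same normexp correction, applied to the spot median in place of the mean, and no scaling between arrays. Which of these differences turned the sign was not tested. The median of all probes itself was 0.20 in 4-18 and -0.23 in shRNA3T with the 75th percentile of the processed signal.

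**Figure D2:**
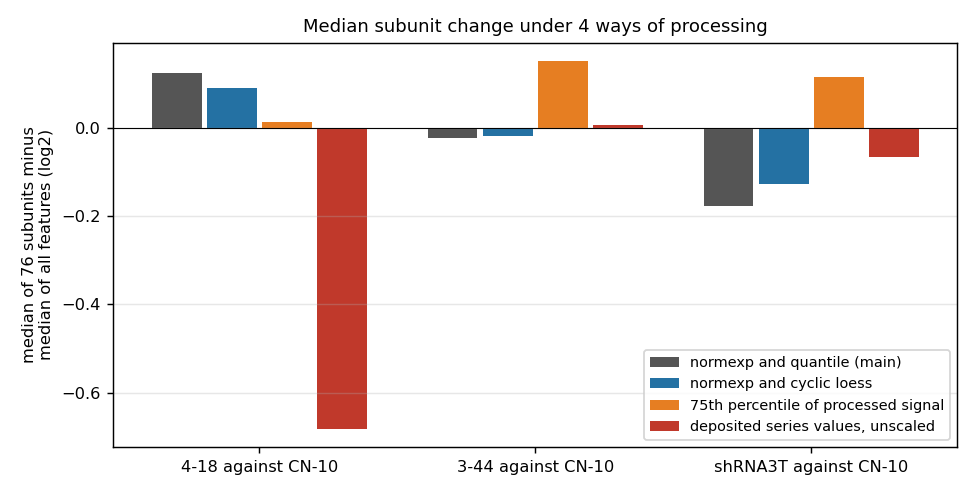
Median log2 fold change of the 76 subunits minus the median over all probes, in each comparison with CN-10, for 4 ways to process the arrays; bars start at 0. In 4-18 the value runs from 0.12 to -0.68, and in shRNA3T it is 0.11 with the 75th percentile of the processed signal and -0.18 with quantile scaling.

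By complex, complex I had 6 of 36 subunits higher and 6 lower in 4-18, 2 higher and 3 lower in 3-44, and none higher and 9 lower in shRNA3T. Over all genes, 11.6% were higher and 12.4% lower in 4-18, 3.45% and 4.69% in 3-44, and 5.13% and 7.04% in shRNA3T. Complex II had 1 of 4 higher in 4-18 and 1 lower in shRNA3T. Complex III had 1 of 7 higher and 1 lower in 4-18 and none in the other 2 groups. Complex IV had 2 of 14 higher and 1 lower in 4-18, 1 lower in 3-44 and 3 lower in shRNA3T, Cox6a2 each time among the lower ones. The ATP synthase had 1 of 15 higher and 3 lower in 4-18, 1 higher in 3-44, and 1 higher and 1 lower in shRNA3T. Within the ATP synthase, 13 of 15 subunits had a negative log2 fold change in shRNA3T (median -0.32), as had 13690 of all 26269 genes, and only 1 of the 15, Atp5j2, passed the test as lower. The signs are subject to the same processing.

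**Figure D3:**
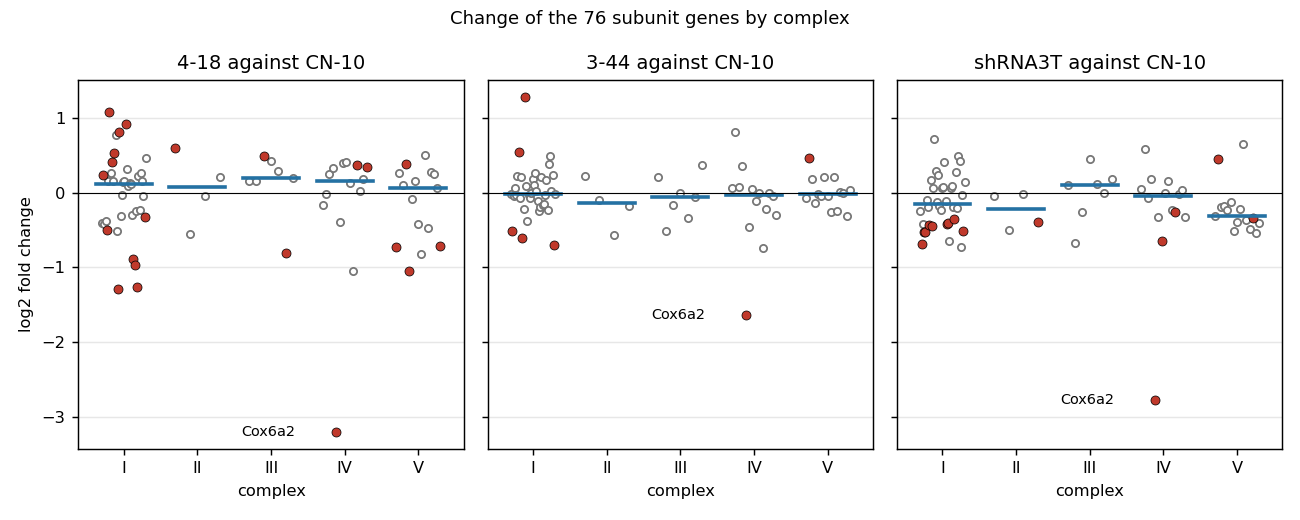
Log2 fold change of each of the 76 subunit genes against CN-10, by complex and silenced group; filled red points passed the test (adjusted p under 0.05), open points did not, and the blue line is the median of the complex. Cox6a2 lies at -3.20, -1.64 and -2.78, apart from all other points.

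Complex I held most of the other changes past 2-fold, and they went both ways. Ndufa3, an accessory subunit, read 14.34, 14.28, 14.21 and 14.20 in CN-10 and 15.39, 15.57, 15.33 and 15.05 in 4-18. It read 15.07, 14.67, 14.72 and 14.74 in 3-44 and 14.29, 13.85, 14.06 and 14.04 in shRNA3T. Both clones lay above CN-10 without overlap, with log2 fold changes of 1.08 in 4-18 (SE 0.12, limma adjusted p = 9.55e-06) and 0.54 in 3-44 (adjusted p = 0.0101), and the shRNA3T value of -0.19 did not pass (adjusted p = 0.383). In the deposited series values Ndufa3 did not pass in either clone, and with the 75th percentile of the processed signal it did not pass in 3-44.

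Ndufa9, an accessory subunit at the junction of the arms of complex I, read 11.58, 12.21, 11.65 and 12.05 in CN-10 and 13.44, 13.09, 13.11 and 13.00 in 3-44, a rise of 1.28 (SE 0.28, limma adjusted p = 0.0104). It read 12.86, 13.20, 11.54 and 12.95 in 4-18, where 1 array lay below all of CN-10 and the change of 0.76 did not pass (adjusted p = 0.0646). In shRNA3T it read 12.21, 12.60, 12.78 and 12.79, and the change of 0.72 did not pass (adjusted p = 0.128). The call in 3-44 was lost with the 75th percentile of the processed signal and in the deposited series values (adjusted p up to 0.202).

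Ndufb10, a membrane arm subunit, read 16.29, 16.10, 16.15 and 16.09 in CN-10 and 15.28, 14.48 and 14.83 in 4-18, where replicate 4 was set aside as an outlier spot. It fell by 1.29 there (SE 0.18, limma adjusted p = 0.000103), while its second, dimmer probe gave -0.32 (adjusted p = 0.352). Under 10 other alternatives the fall kept its call and ran from -1.91 to -0.66. The values of -0.38 in 3-44 and -0.12 in shRNA3T did not pass.

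For Ndufs4, an accessory subunit needed for a stable complex I, the 2 probes on the array moved in opposite directions in 4-18. The brighter probe read 13.47, 13.40, 14.01 and 13.98 in CN-10 and 12.69, 12.08 and 12.56 in 4-18 (replicate 4 again set aside), a fall of 1.27 (SE 0.17, limma adjusted p = 8.48e-05). The dimmer probe read 6.70, 6.71, 6.79 and 6.69 in CN-10 and 8.10, 7.82, 8.11 and 7.95 in 4-18, a rise of 1.27 (SE 0.11, adjusted p = 6.83e-07). Neither pair of groups overlapped, so the gene has no single direction in 4-18, and its mean over both probes did not pass (adjusted p = 0.336). Which transcripts the 2 probes read was not tested. Ndufs4 was the only one of 19 members with several probes that was called both ways, and 6 of the 19 in 4-18, 2 in 3-44 and 5 in shRNA3T were called by some of their probes only, with Ndufv3, Cox6c-ps1 and Ndufb10 among those of 4-18.

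Atp5e, the epsilon subunit of the ATP synthase stalk, read 17.53, 17.37, 17.35 and 17.11 in CN-10 and 16.21, 15.90, 15.40 and 17.65 in 4-18. Replicates 1 to 3 of 4-18 lay below CN-10 and replicate 4 above it. The log2 fold change of -1.05 (SE 0.33, limma adjusted p = 0.0288) lost its call when any 1 of 6 arrays was left out (replicates 1, 2 and 3 of CN-10 and of 4-18, adjusted p up to 0.0868). It also lost the call with the 75th percentile of the processed signal (-0.46, adjusted p = 0.257), with cyclic loess and in a fit of the 2 groups alone.

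**Figure D4:**
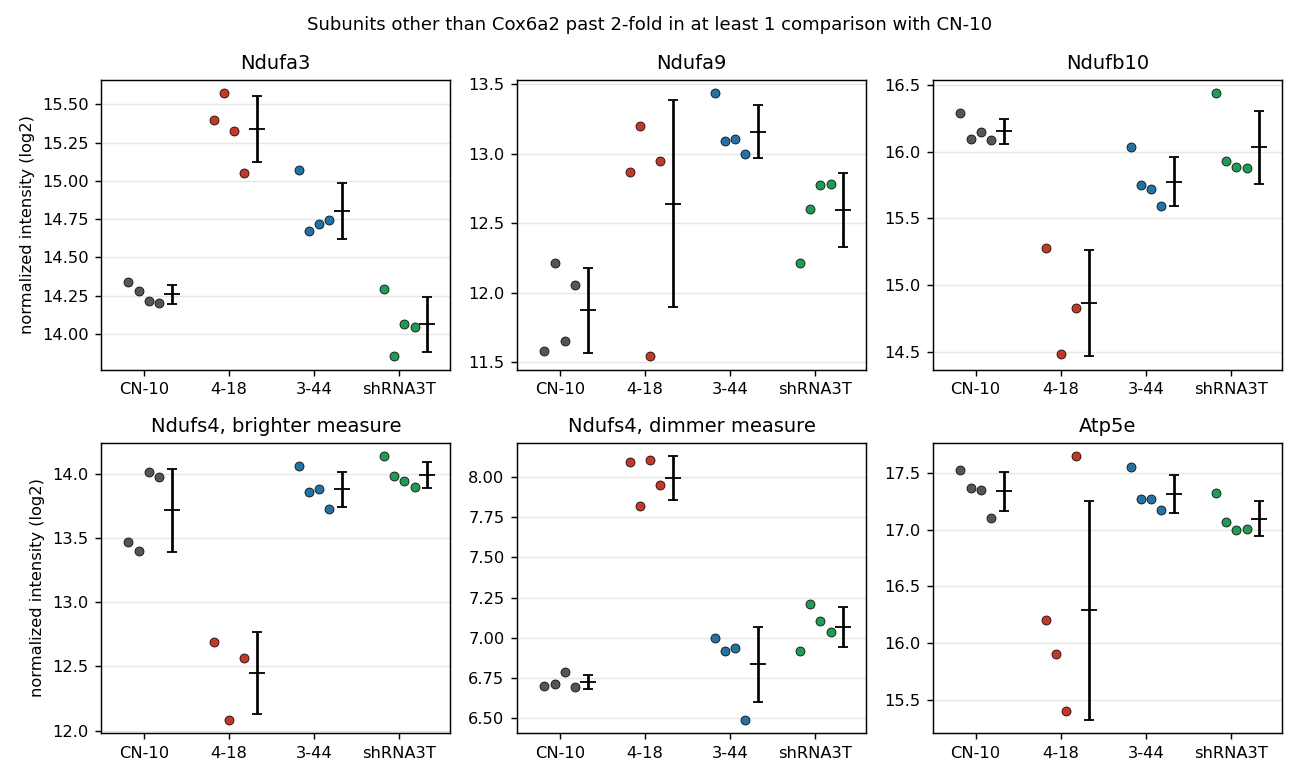
Normalized intensity (log2) per array of the subunits other than Cox6a2 that passed 2-fold in a comparison with CN-10, with both probes of Ndufs4; points are arrays, and the bar is the mean ± SD (n = 4, or 3 where a spot was set aside). The brighter Ndufs4 probe is lower in 4-18 (-1.27) and the dimmer one higher (1.27), and 1 array of 4-18 stands apart for Atp5e and for Ndufa9.

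Smaller changes in 4-18 also ran both ways within single complexes. Ndufb6 (0.92, limma adjusted p = 0.0122), Ndufb11 (0.81, adjusted p = 0.00143) and Sdha, the flavoprotein of succinate dehydrogenase (0.59), were higher than in CN-10. For Ndufb6, 1 array each of CN-10 and 4-18 was set aside, and the call was lost without replicate 1 of 4-18 (log2 fold change 0.64, adjusted p = 0.0533), with the 75th percentile of the processed signal, in a fit of the 2 groups alone and in the deposited series values (0.31, adjusted p = 0.483). Ndufb11 lost its call in the deposited series values (0.15, adjusted p = 0.69). Sdha lost its call with the 75th percentile of the processed signal, and in the deposited series values its sign turned (-0.16). Outside the rule for named genes, further subunits were picked after their values were seen. The iron-sulfur subunit Ndufs1 (-0.90), the hinge protein Uqcrh (-0.81), the alpha subunit Atp5a1 (-0.73) and the OSCP Atp5o (-0.71) were lower in 4-18. The core protein Uqcrc1 (0.49) was higher there. For Atp5o, replicate 4 of 4-18 (16.71) lay above every CN-10 array (16.23 to 16.61). For Ndufs1, replicate 2 of 4-18 (14.31) lay within the CN-10 arrays (14.07 to 14.74).

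In shRNA3T the lower subunits other than Cox6a2 shifted by small amounts. Ndufa10, a complex I subunit, read 14.15, 14.12, 14.03 and 14.07 in CN-10, 14.33, 14.22, 14.31 and 14.46 in 4-18, 13.79, 13.48, 13.47 and 13.59 in 3-44, and 13.49, 13.42, 13.40 and 13.31 in shRNA3T. It was lower by 0.69 in shRNA3T (SE 0.08, limma adjusted p = 3.84e-05) and by 0.51 in 3-44 (adjusted p = 0.00083), and higher by 0.24 in 4-18 (adjusted p = 0.0427). The rise in 4-18 lost its call without any 1 of 9 arrays and kept it under only 4 of 10 other alternatives (adjusted p up to 0.537). In the deposited series values it turned (-0.47), and there both falls also lost their call (adjusted p = 0.135 in shRNA3T and 0.333 in 3-44). Cox6c, a complex IV subunit, read 17.02, 16.86, 16.76 and 16.78 in CN-10 and 16.16, 15.79, 16.35 and 16.54 in shRNA3T, a log2 fold change of -0.64 (adjusted p = 0.00934), which did not pass with cyclic loess, with the 75th percentile of the processed signal or in the deposited series values.

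The remaining falls in shRNA3T ranged from -0.53 (Ndufa12, adjusted p = 0.0467) to -0.27 (Cox8a, adjusted p = 0.0261). The call of Ndufa12 was lost without any 1 of 12 arrays and under 4 of 10 other alternatives (adjusted p up to 0.679). Ndufv2, an iron-sulfur subunit of the NADH module measured by 10 spots, was lower in each silenced group, by 0.33 in 4-18, 0.70 in 3-44 and 0.52 in shRNA3T (limma adjusted p = 0.0286, 0.000421 and 0.00299). Its fall in 4-18 lost the call without any 1 of 5 arrays and under 5 of 10 other alternatives (adjusted p up to 0.434), and those in 3-44 and shRNA3T lost it in the deposited series values (adjusted p = 0.308 and 0.655). Atp5b, the catalytic beta subunit of the ATP synthase, was the 1 subunit higher in shRNA3T (0.45, adjusted p = 0.0116) and was also higher in 3-44 (0.46, adjusted p = 0.0144), and the value of 0.26 in 4-18 did not pass. Its call was lost in shRNA3T with the 75th percentile of the processed signal (adjusted p = 0.088), in 3-44 in a fit of the 2 groups alone (adjusted p = 0.066), and in both in the deposited series values.

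**Figure D5:**
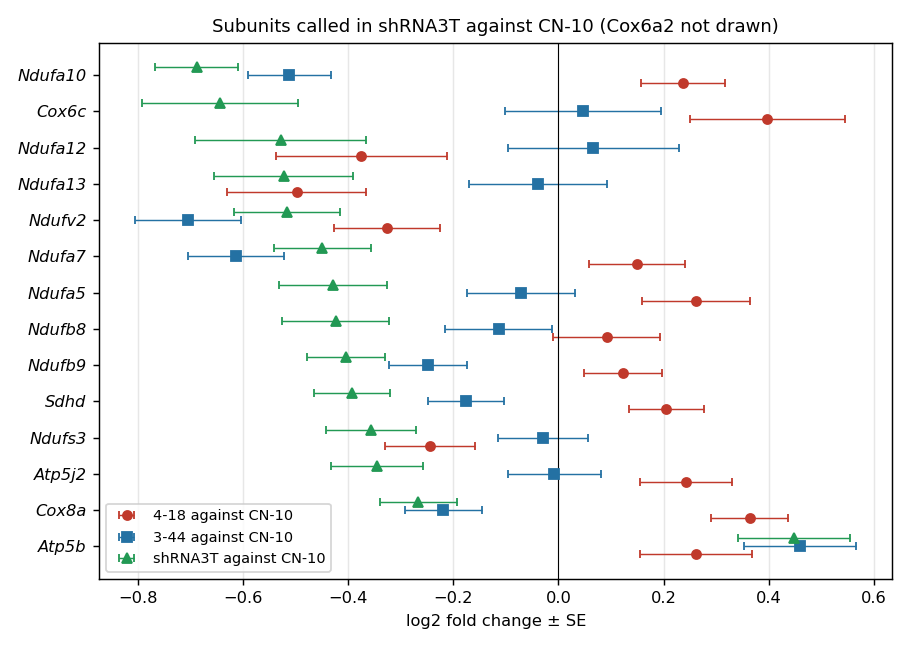
Log2 fold change ± SE of the subunits called in shRNA3T against CN-10 other than Cox6a2, shown for the 3 silenced groups, which share the CN-10 arrays. Green triangles (shRNA3T) lie between -0.69 and -0.27 for all but Atp5b (0.45). The red points (4-18) lie above 0 for Ndufa10, Cox8a and several others.

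Over all genes, calls were more frequent for probes with 10 spots or more, at 43.3% against 23.1% in 4-18 and 32.6% against 11.1% in shRNA3T. In shRNA3T, 7 of the 12 subunits measured by 10 spots or more were called (58.3%), against 8 of the other 64 (12.5%), and the median SE was 0.10 and 0.21 in these sets. In 4-18, 3 of these 12 subunits and 19 of the other 64 (29.7%) were called.

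Set against each other, the silenced groups differed in many subunits. Between 4-18 and 3-44, 18 subunits were higher (23.7%, background 12.4%) and 8 lower (10.5%, background 10.1%) in 4-18. Against shRNA3T, 21 were higher (27.6%, background 11.3%) and 4 lower (5.26%, background 9.24%) in 4-18. Between 3-44 and shRNA3T, which carry the same shRNA3, 9 were higher (11.8%, background 5.36%) and 1 lower (1.32%, background 5.57%) in 3-44. Among them Cox6c was higher by 1.04 and Ndufa3 by 1.27 in 4-18 than in shRNA3T (limma adjusted p = 0.000132 and 2.71e-06). The direction of these counts turned in the deposited series values, where 0 were higher and 21 lower in 4-18 than in 3-44 (1.07% and 10.8% of all genes), and 0 higher and 16 lower in 4-18 than in shRNA3T (0.731% and 13.2%). The 10 called between 3-44 and shRNA3T were 21 with array weights, 2 with the 75th percentile of the processed signal, 0 in the deposited series values, and 4 to 6 without replicate 1 or 4 of 3-44 or any 1 array of shRNA3T. All these counts share groups with the comparisons above and are no separate evidence.

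Among the 12 members that are no subunits, 1 was higher and 3 lower in 4-18 (background 11.6% and 12.4%), 4 were lower in 3-44 (4.69%) and 2 were lower in shRNA3T (7.04%). Ndufaf1, an assembly factor of complex I, fell by 1.11 in 4-18 (SE 0.23, limma adjusted p = 0.00268), where its arrays read 8.82, 9.11, 7.87 and 9.39 against 9.58, 10.10, 10.00 and 9.94 in CN-10. Cox6c-ps1, a pseudogene of Cox6c, was 2.32-fold lower in 4-18 and 2.83-fold lower in 3-44 (adjusted p = 5.03e-05 and 3.42e-05) by its brighter probe, and its dimmer probe gave -0.21 and 0.29 that did not pass. Ndufb4l1, a copy-like gene of Ndufb4, fell by 0.74 and 1.36 in the same groups (adjusted p = 0.0001 and 1.35e-06). Atp5hl1, a copy-like gene of subunit d, rose by 1.28 in 4-18 (adjusted p = 0.0338), a call lost without any 1 of 6 arrays. Signal of such copies can include that of the parent gene, and this was not tested. Cox4nb, a neighbour of Cox4i1 and no subunit, fell by 0.69 in 3-44 and 0.82 in shRNA3T (adjusted p = 0.0111 and 0.00201), calls lost in the deposited series values (adjusted p = 0.22 and 0.16) and, in 3-44, with the 75th percentile of the processed signal (adjusted p = 0.207).

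Genes around the chain were taken from lists outside the name rule, and their counts stand beside the same background over all genes, 11.6% higher and 12.4% lower in 4-18, 3.45% and 4.69% in 3-44, and 5.13% and 7.04% in shRNA3T. Of 5 electron carriers, 1 rose and 2 fell in 4-18, and 1 fell in shRNA3T. Cycs, cytochrome c, was lower by 0.44 in 4-18 and by 0.56 in shRNA3T (limma adjusted p = 0.0156 and 0.00601). Of 20 assembly factors measured, 6 rose and 2 fell in 4-18, none passed in 3-44, and 1 rose and 1 fell in shRNA3T. Atpaf2, an assembly factor of the ATP synthase, rose in 4-18 (0.94) and shRNA3T (0.57). Atpif1, the inhibitor of the ATP synthase, fell by 0.92 in shRNA3T (adjusted p = 0.0145), where 1 array (13.49) lay far under the other 3 (14.72 to 14.85).

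Of 18 genes of nuclear and mitochondrial control, 2 rose and 2 fell in 4-18, 2 fell in 3-44 and 1 fell in shRNA3T. Ppargc1a, which encodes the coactivator PGC-1α of mitochondrial genes, read 8.71, 8.81, 8.15 and 8.65 in 4-18 and was not well above background on any of the other 12 arrays. It was at least 4.72-fold higher in 4-18 than in CN-10, where each CN-10 array entered at its own signal or, if greater, at the dimmest signal that passed the background flag there (limma adjusted p = 1.62e-09). Nrf1, whose product binds promoters of many subunit genes, was lower by 0.72 in shRNA3T (adjusted p = 0.029) and did not pass in 4-18 (-0.55) or 3-44 (0.18).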

How the data were processed

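RNA of 4 groups of H35 cells was hybridized by the authors to one-color Agilent arrays and read out with Feature Extraction (version 10.7.3.1). Deposited per spot are a linear, unnormalized mean intensity, a local background intensity (median) and other flags (outlier, saturated, well above background). The deposited series values had lost their decimal point, which was restored here, and were read as log2. Probe positions are those of the array files (rn4).

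The limma package (3.58.1, under R 4.3.3) was used for normexp background correction with an offset of 50 and for quantile normalization of log2 intensities. Control spots and outlier spots were left out and the spots of a probe averaged. All 16 arrays were fitted with 1 mean per group, without a term for slide, and p-values were adjusted (Benjamini-Hochberg) over 30367 probes, with 0.05 as the limit. A gene was represented by its probe with the highest mean over all arrays. Of 88 member genes, 78 carried an accession matched to a RefSeq gene (GRCr8), 16 of them under another symbol today. Named were Cox6a2, Cox6a1 and other tissue isoforms with their partners, members past 2-fold, and the 5 highest and 5 lowest called members per comparison with CN-10. Cox6a2, Cox6a1 and their difference also had an exact permutation test (two-sided). Array number and signal over background (no saturated spot among the members) limit the precision. The fit was tested on simulated data. The members, lists and tests were chosen with earlier results of these data known. Alternatives covered the scaling, the offset, a filter on dim probes, array weights, outlier spots, the samples fitted, the choice of probe, a replicate block and leaving out each array.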

Additional observations from a re-analysis of the deposited data

Results flagged for a closer look

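Of 112 groups of 4 arrays checked for the named members, 9 held an array whose gap to its nearest neighbour took a share of the group's range above Dixon's 95% critical value, and chance gives about 1 in 20. Of these 9 arrays, 7 were replicate 1 of their group (of CN-10, 3-44 or shRNA3T). The shares were 0.929 for Atp5g3 in 3-44 (lowest array 15.35, the others 16.29 to 16.36), 0.930 for Atp5hl1 in 3-44 (13.50 against 15.24 to 15.37), 0.843 for Cox4nb in 3-44, 0.924 for Cox6c-ps1 in CN-10, 0.948 for Cox7a2 in 4-18 and 0.901 for Ndufa12 in CN-10, each with 1 low array. They were 0.865 for Cox7b, 0.863 for Ndufa4 and 0.916 for Ndufb10 in shRNA3T, each with 1 high array.

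Among the effects against CN-10 that differed between silenced groups by a direct limma test (26 subunits between 4-18 and 3-44, 25 between 4-18 and shRNA3T, 10 between 3-44 and shRNA3T) were those of Cox6a2, by -1.57 between 4-18 and 3-44 and by 1.14 between 3-44 and shRNA3T, and of 2 subunits called in opposite directions. Ndufa10 differed by 0.75 between 4-18 and 3-44 and by 0.92 between 4-18 and shRNA3T, and Cox8a by 0.63 between 4-18 and shRNA3T. Ndufa10 and Cox8a changed sign in 4-18 against CN-10 in the deposited series values.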

How the results depend on the processing

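Cox6a2 kept its direction and its call against CN-10 under every alternative run, and counts of subunits moved more. With the 75th percentile of the processed signal the subunits called higher and lower were 17 and 5 in 4-18, the higher ones 1 in 3-44, and 0 and 6 in shRNA3T, 2 were called between 3-44 and shRNA3T, and Cox6a2 minus Cox6a1 changed by -5.40 in 4-18 and -3.34 in shRNA3T. In the deposited series values, higher and lower were 0 and 22 in 4-18, 0 and 1 in 3-44 and 0 and 1 in shRNA3T, 16 were called between 4-18 and shRNA3T and 0 between 3-44 and shRNA3T (18 at an unadjusted p under 0.05 in limma with quantile scaling), the isoform difference was -3.10 in 4-18 and -3.32 in shRNA3T, and the sign in 4-18 turned for Cox8a (-0.069), Ndufa10 (-0.47), Ndufa4 (-0.23) and Sdha (-0.16), the cause of which was not tested. Cyclic loess left 9 lower in shRNA3T, and an offset of 16 gave an isoform difference of -3.99 in 4-18. Array weights gave 10 lower in 3-44, 4 higher and 28 lower in shRNA3T and 21 between 3-44 and shRNA3T, and a fit of the 2 groups alone gave 5 lower in 4-18 and 2 higher in shRNA3T. Same-numbered arrays of different groups had deviations correlated from -0.11 to 0.44 (median 0.12 over 24 pairs, against -0.020 over 72 pairs of different numbers), and all 6 pairs of replicate 1 lay between 0.17 and 0.44, but not every pair was above 0.1, so the numbers were not taken as pairs. With the replicate block, 7 were lower in 3-44, and no other count here moved by over 1.5 times. Leaving out 1 array gave 6 to 14 lower in 4-18 (7, 6 and 6 without CN-10 replicates 1, 2 and 3), 1 to 2 higher in shRNA3T (2 without CN-10 replicate 4 or 4-18 replicate 3) and 4 to 11 between 3-44 and shRNA3T (4 to 6 without replicate 1 or 4 of 3-44 or any array of shRNA3T). The slide could not be a term, and 2 subunits, Cox8b and Cox8c, were not well above background on all arrays of any group.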
